A study of Mus musculus with 4 samples.

Results

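The transcription factors that give the segments of the developing nephron their identity were followed in RNA-seq of mouse kidney cells with and without *Eya1*. The group held 9 genes, chosen by symbol from the 52636 gene identifiers that were counted: *Lhx1*, *Hnf4a*, *Hnf4g*, *Pou3f3*, *Irx1*, *Irx2*, *Irx3*, *Mecom* and *Tfap2b*. All 9 were found and all 9 passed the filter on low counts. The study asked which genes depend on the transcriptional coactivator Eya1 in nephron progenitor cells (NPCs). Control embryos carried *Eya1* CreER and the *R26-tdTomato* reporter, and *Eya1*cKO embryos carried the same alleles together with *Eya1* fl/fl. Both genotypes had been given tamoxifen, and kidneys were taken 48 hours after its first dose, at about E12.75. tdTomato+ cells, that is cells in which the *Eya1*-driven CreER had been active and their descendants, were purified by FACS, and each of the 4 libraries (2 Control, 2 *Eya1*cKO) was made from 5000 of them. Kidneys were pooled by genotype before the sort and the libraries of a genotype were portions sorted at the same time, so the p-values measure the spread between portions and not between embryos.

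Between 17457452 and 37999342 reads were counted on genes, and both *Eya1*cKO libraries were shallower than both Control libraries. *Eya1* itself was read 6612 and 6420 times in Control 1 and 2, and 377 and 219 times in *Eya1*cKO 1 and 2. These counts are 180.4 ± 12.7 against 14.6 ± 2.97 CPM (counts scaled to a common library size by TMM; mean ± SD, n = 2), so that 8.08% of its Control level was left. *Six2*, the transcription factor that keeps NPCs undifferentiated, was read 8655, 9150, 377 and 80 times. Wherever 4 values of a gene follow each other they stand in this library order, Control first. *Six2* was called lower, as were all 7 NPC markers. Markers of other cell types were also read, in unequal amounts. The summed level of 8 endothelial markers went from 660.2 and 676 CPM in Control to 1185 and 1228 CPM in *Eya1*cKO, that of 8 stromal markers from 1921 and 1920 CPM to 3752 and 3729 CPM (5 of 8 called higher, with *Col3a1*, singled out after its values were seen, at 965, 962, 2431 and 2412 CPM of these sums), and that of 7 podocyte markers from 879 and 899.7 CPM to 2773 and 2829 CPM (6 of 7 called higher). The 7 adrenal cortex markers summed to 19.4 and 11.99 CPM in Control and to 689 and 664 CPM in *Eya1*cKO, and the 8 sympathoadrenal markers to 6.53 and 10.3 CPM and to 546 and 582 CPM. None of the endothelial, sympathoadrenal or adrenal cortex markers was at 0 in a library, and every one of them was called higher. The 8 ureteric bud markers summed to between 147 and 155 CPM in Control and between 106 and 133 CPM in *Eya1*cKO (1 called lower, and *Aqp2* at 0 in Control 2 and *Eya1*cKO 2), the 6 Schwann and crest markers to between 27.1 and 28.5 CPM and between 29.9 and 40.1 CPM (1 called higher, and *Sox10* at 0 in Control 1), and the 6 neuronal markers to between 32.9 and 36.8 CPM and between 55.2 and 55.6 CPM (2 called higher and 1 lower). The part of these other cells in the results for the segment factors was not tested. The *Eya1*cKO libraries differed more from each other than the Control libraries did: the median absolute log2 difference over 19041 genes was 0.553 between *Eya1*cKO 1 and 2 and 0.181 between Control 1 and 2.

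In background, a nephron begins as a cluster of NPCs that becomes an epithelial renal vesicle, bends into comma- and S-shaped bodies, and is then divided along its length into glomerulus, proximal tubule, loop of Henle and distal tubule. The first polarity appears in the renal vesicle under Wnt, Fgf8 and Notch signals, with *Lhx1* and *Pou3f3* on its distal side. Later, *Hnf4a* marks the proximal precursor, Iroquois genes (*Irx*) mark the intermediate one that gives rise to the loop, and *Mecom* and *Tfap2b* are known from the distal nephron. The proteins are of different families: *Lhx1* encodes a LIM-homeodomain factor, *Pou3f3* a POU-domain factor, *Hnf4a* and *Hnf4g* nuclear receptors, *Irx1*, *Irx2* and *Irx3* homeodomain factors of the TALE class, *Mecom* a zinc-finger protein of the PRDM family, and *Tfap2b* an AP-2 factor.

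The 9 genes did not move together. *Hnf4a* and *Irx1* were called higher in *Eya1*cKO at an adjusted p under 0.05 (edgeR quasi-likelihood test, Benjamini-Hochberg), which is 2 of 9 where 5.15% of all genes tested were called higher. *Lhx1* was called lower, 1 of 9 where 4.41% of all genes tested were called lower. The other 6 did not pass the test. For *Lhx1*, *Hnf4a*, *Irx1* and *Mecom*, 4 of 9 genes, the range of the *Eya1*cKO libraries did not overlap that of Control, where 55.3% of all genes tested were so separated. The median log2 fold change of the 9 genes was −0.03, beside 0.02 over all genes tested, and their summed level was 411 and 446 CPM in Control and 376 and 418 CPM in *Eya1*cKO. Throughout these bulk libraries, fewer cells of a type and less RNA per cell cannot be told apart. Leaving out either Control library ended the calls: without Control 1 or Control 2 no segment factor passed, and over all genes the fit then called 15 or 16 genes higher and 8 or 7 lower in place of 981 and 839. Without *Eya1*cKO 1 or 2, in turn, it called 4143 or 4443 genes higher and 3271 or 3482 lower.

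**Figure D1:**
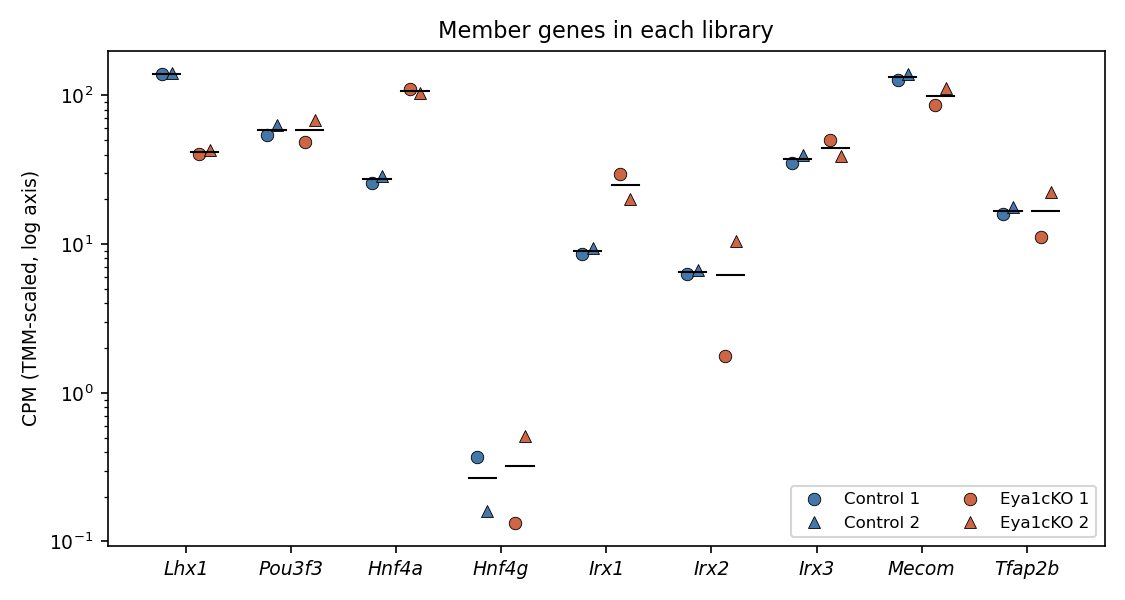
Level of each of the 9 segment factors in each library, in CPM scaled by TMM on a log axis, with Control libraries in blue, *Eya1*cKO libraries in red and a bar at each group mean. *Lhx1* stands at 138 and 141 CPM in Control and at 40.1 and 42.6 CPM in *Eya1*cKO, *Hnf4a* shows the opposite order, and the 2 *Eya1*cKO points of *Irx2* lie on either side of its Control points.

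*Lhx1*, required for the formation and patterning of the renal vesicle, was the member that fell. Its gene lies at chr11:84518284-84525535 on the minus strand of GRCm38. It was read 4828, 5274, 907 and 747 times, which is 138, 141, 40.1 and 42.6 CPM. The 4 values formed 2 tight pairs that were far apart. Its level of 139.6 ± 1.83 CPM became 41.4 ± 1.73 CPM (SD, n = 2), so that 29.6% of the Control level was left, a log2 fold change of −1.76 ± 0.13 (SE; adjusted p = 0.001) or 3.38-fold lower. The 2 *Eya1*cKO libraries differed by 0.0851 on the log2 scale for *Lhx1*, against the median of 0.553 over all genes. That median also covers genes with far fewer reads, such as *Hnf4g*, so it does not show whether *Lhx1* was unusually even. The change had the same sign with each library left out, from −1.81 to −1.72, but its adjusted p was 0.10 without Control 1 and 0.12 without Control 2. NPC markers fell with it, their summed level going from 836 and 856 CPM to 121 and 101 CPM, and their part in the result for *Lhx1* was not tested.

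Since *Lhx1* was the member called lower and *Hnf4a* the one called higher with the larger fold, their promoter windows are shown. They are the bases before a RefSeq transcription start (GRCm38.p6) that lie in no annotated exon of the gene, 5′ to 3′ on the gene's strand, with capitals where a searched motif matches. The motifs were the TATA box TATAAA, the GC box with its letters GGGCGG, the CCAAT box, the site GTGGGAA of the Notch pathway factor RBPJ, the motif TCANGTTTC of Six2 and its relatives, and the left and right parts of the REST site, TTCAGCACC for the left and GGACAGCGC for the right, all searched on both strands. In *Lhx1*, the window at chr11:84525536-84525784 on the minus strand holds 1 match, a CCAAT box read on the opposite strand:
Lhx1: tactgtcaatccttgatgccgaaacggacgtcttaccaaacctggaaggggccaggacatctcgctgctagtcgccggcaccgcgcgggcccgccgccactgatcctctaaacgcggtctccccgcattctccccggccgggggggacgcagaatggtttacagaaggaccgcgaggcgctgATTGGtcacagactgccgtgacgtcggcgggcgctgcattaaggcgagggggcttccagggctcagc
CCAAT on either strand is in 33.8% of the 32851 RefSeq windows of 250 bases, so the match does not set *Lhx1* apart. The *Lhx1* window is richer in G and C than most, 64.7% against a median of 52.4%.

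*Lhx1* acts with the LIM-binding proteins and their single-stranded DNA-binding partners. Of this cofactor list of 6 genes, 1 was called higher, 1 lower and 4 neither way. Their median log2 fold change was 0.09. Over all genes tested, 5.15% were called higher and 4.41% lower. *Ldb2* rose by a log2 fold change of 0.74 ± 0.12 (adjusted p = 0.014) and *Ssbp3* fell by 0.41 on the log2 scale (adjusted p = 0.026). The adjusted p of *Ldb2* was 0.48 without either Control library, and that of *Ssbp3* was 0.56 without Control 1 and 0.49 without Control 2. *Ldb1*, the main partner of LIM-homeodomain factors (named after its values were seen), was read 7340, 8588, 4889 and 4576 times, with a log2 fold change of 0.11 ± 0.11 (adjusted p = 0.56).

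Genes of the renal vesicle, where *Lhx1* first comes on, were lower as well, where they passed the test. Of 11 on the list, 10 were tested, 6 were called lower and none higher, with a median log2 fold change of −0.98. *Bmp2*, a ligand of the distal renal vesicle, had a log2 fold change of −1.65 ± 0.21 (adjusted p = 0.006) and *Greb1* one of −1.21 ± 0.18 (adjusted p = 0.0097). The next 4 were named after their values were seen. *Wnt4*, the signal that turns NPCs into epithelium, was read 7376, 7777, 2356 and 2347 times (log2 fold change −0.83, adjusted p = 0.011). *Fgf8*, a growth factor needed for *Lhx1* expression in this tissue, was read 884, 938, 156 and 4 times (−2.66, adjusted p = 0.034), and settings that ended its call included no filter on low counts (0.069), the legacy quasi-likelihood method (0.23) and Control thinned to the *Eya1*cKO depth (0.058). The level of *Fgf8* was thus far lower in *Eya1*cKO 2 than in *Eya1*cKO 1, whereas *Lhx1* was alike in both, and the *Fgf8* log2 fold change was −6.77 without *Eya1*cKO 1 and −1.88 without *Eya1*cKO 2. The Notch ligand *Jag1* (−0.60, adjusted p = 0.016) and the Notch target *Hey1* (−1.12, adjusted p = 0.017) were called lower too. Without Control 1 or Control 2 none of the 6 passed, their adjusted p lying between 0.26 and 0.51.

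*Pou3f3* (Brn1), needed for the loop of Henle and distal tubule, is the other early distal factor, and it did not follow *Lhx1*. Its single exon lies at chr1:42695768-42703176 on the plus strand. It was read 1878, 2350, 1094 and 1191 times, or 53.8, 62.8, 48.4 and 67.9 CPM. The *Eya1*cKO values were the lowest and the highest of the 4. The means were 58.3 ± 6.35 and 58.2 ± 13.8 CPM, and the log2 fold change of −0.03 ± 0.20 (adjusted p = 0.95) became 0.01 when library totals alone were used and in DESeq2, so no direction can be given. The log2 ratio of *Lhx1* to *Pou3f3* reads within a library was 1.36 and 1.17 in Control and −0.27 and −0.67 in *Eya1*cKO. *Lhx1* gave more reads than *Pou3f3* in both Control libraries and fewer in both *Eya1*cKO libraries, a mean difference of −1.74 (exact two-sided permutation p = 0.3333, the smallest that 2 against 2 libraries allow).

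*Hnf4a*, the nuclear receptor required for the proximal tubule, rose the most of the 9. Its gene lies at chr2:163506808-163572910 on the plus strand. It was read 903, 1081, 2475 and 1810 times, or 25.9, 28.9, 109.5 and 103 CPM. Both *Eya1*cKO libraries held more reads of it than either Control library even before scaling, although they were shallower. Its level of 27.4 ± 2.13 CPM became 106 ± 4.49 CPM, a log2 fold change of 1.96 ± 0.15 (adjusted p = 0.0011) or 3.89-fold higher. Left-out libraries moved the log2 fold change between 1.86 and 2.03, with an adjusted p of 0.13 without Control 1 and of 0.12 without Control 2. As with *Lhx1*, the *Eya1*cKO libraries were close, 0.0861 apart on the log2 scale.

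The gene has 2 RefSeq starts, each with its promoter window, and reads counted over the whole gene do not tell which was used. The windows are chr2:163506607-163506807 and chr2:163546943-163547154, both on the plus strand:
Hnf4a upstream: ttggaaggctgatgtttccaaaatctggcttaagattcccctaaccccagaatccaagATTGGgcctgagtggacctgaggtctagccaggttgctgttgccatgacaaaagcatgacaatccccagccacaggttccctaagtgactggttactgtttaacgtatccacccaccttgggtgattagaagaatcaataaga
Hnf4a downstream: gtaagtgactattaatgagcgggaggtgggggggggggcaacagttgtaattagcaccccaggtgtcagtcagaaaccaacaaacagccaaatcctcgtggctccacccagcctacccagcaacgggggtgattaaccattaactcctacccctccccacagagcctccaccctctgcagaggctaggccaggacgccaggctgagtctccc
The upstream window holds 1 CCAAT box on the opposite strand. The downstream one holds none of the searched motifs. Of the 12 other segment factors listed, 2 were called higher and none lower. One of the called genes was *Maf*, a bZIP factor, which rose (log2 fold change 1.19 ± 0.17, adjusted p = 0.0085; 0.26 without Control 1 and 0.30 without Control 2). The other 10 were not called, and the list's median log2 fold change was 0.07. Neither part of the REST site, nor the TATA box, nor the motif of Six2 was found in any of the 9 promoter windows of segment factors, which covered 7 of the 9 genes with 2 windows each for *Hnf4a* and *Mecom*. These motifs are in 0.301% and 0.304%, 12.4% and 0.989% of all windows.

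Part of the proximal tubule list rose in *Eya1*cKO. Of 16 genes listed, 13 were tested, 7 were called higher, none was called lower and 6 did not pass, with a median log2 fold change of 1.72. Their summed level was 288 and 272 CPM in Control and 719 and 662 CPM in *Eya1*cKO. *Lrp2*, the endocytic receptor megalin, rose by a log2 fold change of 1.36 ± 0.14 (adjusted p = 0.0027). *Pdzk1*, a scaffold protein of the brush border, named after its values were seen, was read 235, 192, 1074 and 637 times (2.85 ± 0.31, adjusted p = 0.0034). Without Control 1 and Control 2 in turn neither passed, with an adjusted p of 0.16 and 0.20 for *Lrp2* and of 0.18 and 0.23 for *Pdzk1*. *Gatm*, the enzyme that begins creatine synthesis, was at 3 counts or fewer in every library. Adrenal cortex and sympathoadrenal markers rose in the same libraries, as given above, and their part in the levels of *Hnf4a* and of these genes was not tested.

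*Hnf4g*, the second HNF4 gene, was close to the limit of detection. It lies at chr3:3508030-3658052 on the plus strand and was read 13, 6, 3 and 9 times, with *Eya1*cKO 1 at the floor of 3 counts. The 2 groups overlapped, and a log2 fold change of 0.18 ± 1.09 (adjusted p = 0.93) that ranged from −0.98 to 0.94 with 1 library left out gives no direction. No difference was detectable at this depth. Per library, the log2 ratio of *Hnf4a* to *Hnf4g* reads was 6.06 and 7.38 in Control and 9.47 and 7.57 in *Eya1*cKO (exact two-sided permutation p = 0.3333). *Hnf4a* gave more reads than *Hnf4g* in all 4 libraries.

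**Figure D2:**
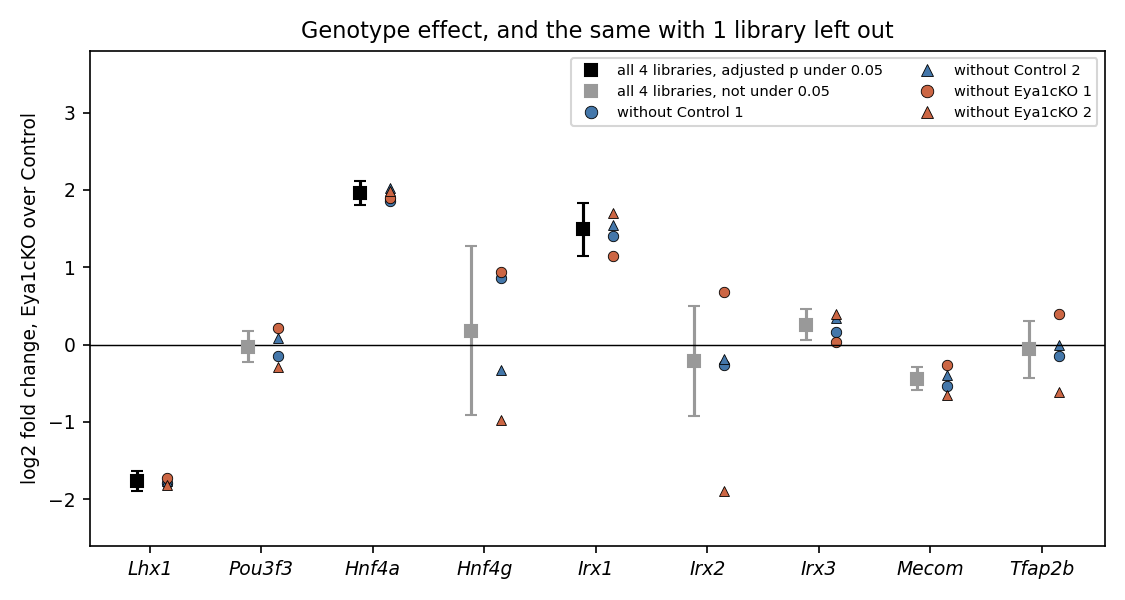
Log2 fold change of *Eya1*cKO over Control for each segment factor (squares, with bars of 1 SE; black where the adjusted p is under 0.05) beside the same value with 1 library left out (coloured marks). *Lhx1*, *Hnf4a* and *Irx1* stay on one side of 0 with any library left out, whereas *Irx2* goes from −1.89 without *Eya1*cKO 2 to 0.68 without *Eya1*cKO 1.

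The 3 Iroquois genes gave 3 different pictures. *Irx1* and *Irx2* are neighbours of one Iroquois cluster on chromosome 13, *Irx1* at chr13:71957921-71963723 on the minus strand and *Irx2* at chr13:72628820-72634198 on the plus strand, and *Irx3* belongs to the other cluster, at chr8:91798525-91802067 on the minus strand. *Irx1* was read 300, 353, 672 and 351 times, or 8.59, 9.43, 29.7 and 20.0 CPM. Both *Eya1*cKO libraries were above both Control libraries. Its mean went from 9.01 ± 0.591 to 24.9 ± 6.88 CPM, with a fitted log2 fold change of 1.49 ± 0.34 (adjusted p = 0.039) or 2.82-fold higher.

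The call for *Irx1* was less firm than those for *Lhx1* and *Hnf4a*, which passed under all 9 settings other than left-out libraries. *Irx1* passed under 5 of the 9, with an adjusted p from 0.0043 to 0.11, while its log2 fold change stayed between 1.45 and 1.53. Without Control 1 the log2 fold change of *Irx1* was 1.41 (adjusted p = 0.57) and without Control 2 it was 1.55 (adjusted p = 0.58). It was 1.14 without *Eya1*cKO 1 and 1.70 without *Eya1*cKO 2, and it passed in both.

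*Irx2* was the member on which the *Eya1*cKO libraries disagreed most. It was read 221, 251, 40 and 185 times, or 6.33, 6.70, 1.77 and 10.6 CPM. *Eya1*cKO 1 lay below both Control libraries and *Eya1*cKO 2 above both, 5.96-fold apart. The means were 6.52 ± 0.265 and 6.16 ± 6.21 CPM, and the log2 fold change was −0.21 ± 0.71 (adjusted p = 0.88). It was −1.89 without *Eya1*cKO 2 (adjusted p = 0.0099) and 0.68 without *Eya1*cKO 1 (adjusted p = 0.15), so the sign of the change in *Irx2* depended on which library was set aside, and a call appeared only without *Eya1*cKO 2. The log2 ratio of *Irx1* to *Irx2* reads was 0.44, 0.49, 4.05 and 0.92 (exact two-sided permutation p = 0.3333). Both *Eya1*cKO ratios were above both Control ratios, but most of the mean difference of 2.02 came from *Eya1*cKO 1.

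Genes of the loop of Henle showed the same split between the *Eya1*cKO libraries, and are named here after their values were seen. *Slc12a1*, the sodium-potassium-chloride cotransporter of the thick ascending limb, was read 152, 186, 40 and 154 times. The tight-junction gene *Cldn19* was read 162, 112, 3 and 86 times, and *Bsnd*, a chloride channel subunit, 33, 16, 0 and 100 times. *Esrrb*, a nuclear receptor of the loop and distal tubule, was read 49, 75, 0 and 81 times. All 4 were lowest in *Eya1*cKO 1. None of the 4 was called with all libraries, at an adjusted p from 0.40 to 0.97. Over the 4 libraries the root mean square difference of centred log2 CPM from *Irx2* was 0.201 for *Slc12a1*, 0.594 for *Tfap2b*, 0.775 for *Pou3f3*, 1.03 for *Cldn19*, 1.10 for *Irx3*, 1.35 for *Esrrb*, 1.42 for *Bsnd* and 1.48 for *Irx1*. The 4 loop genes among these 8 were picked for their pattern, so their likeness to *Irx2* is a description.

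**Figure D3:**
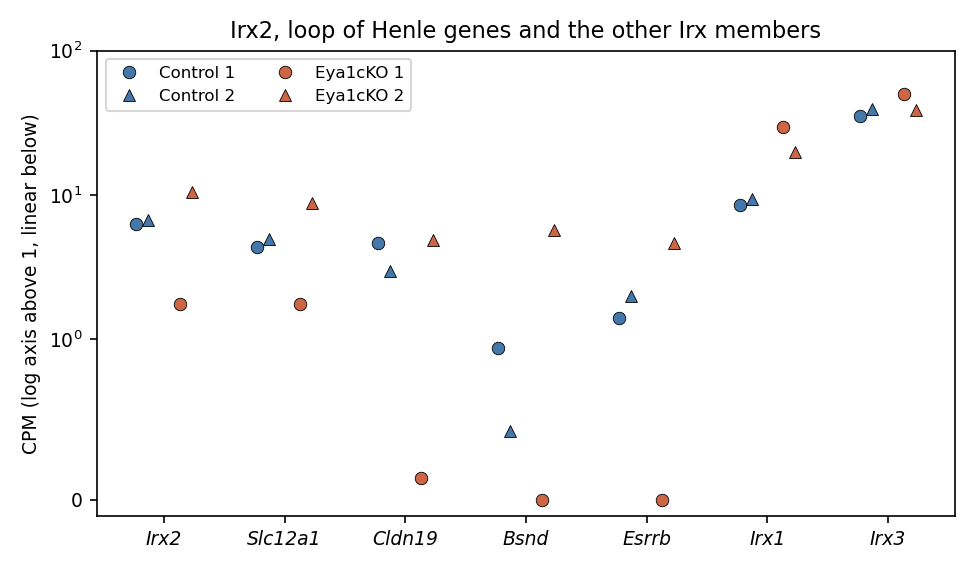
Level in each library, in CPM (log axis above 1, linear below), of *Irx2*, of 4 genes of the loop of Henle and of the other 2 Iroquois segment factors. For *Irx2* and the 4 loop genes the *Eya1*cKO 1 circle is the lowest point and *Eya1*cKO 2 the highest, whereas *Irx1* is above Control in both *Eya1*cKO libraries.

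Over the whole list of 14 loop and distal tubule genes no common direction was seen. Of the 9 tested, 1 was called higher and 1 lower, with a median log2 fold change of 0.84. *Ptger3*, a prostaglandin receptor, was called higher (2.74 ± 0.60, adjusted p = 0.036) and *Calb1*, a calcium-binding protein of the distal tubule and ureteric bud, lower (−2.19 ± 0.24, adjusted p = 0.0034). Both were lost without a Control library, with an adjusted p of 0.54 and 0.52 for *Ptger3* and of 0.21 for *Calb1*, and settings that ended the call of *Ptger3* also included no filter on low counts (0.064), the legacy method (0.054) and thinned Control (0.066). *Pvalb* had no read in any library. The 14 genes summed to 84.3 and 76.4 CPM in Control and to 53.4 and 69.9 CPM in *Eya1*cKO. *Calb1* alone held 56.0, 52.6, 12.6 and 10.9 CPM of these sums, which therefore give no direction for the rest of the list.

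*Irx3* was the most even of the Iroquois genes. It was read 1225, 1485, 1128 and 681 times, or 35.1, 39.7, 49.9 and 38.8 CPM, with the *Eya1*cKO 2 value between the 2 Control values. The means were 37.4 ± 3.24 and 44.4 ± 7.85 CPM (log2 fold change 0.26 ± 0.20, adjusted p = 0.43). Its exons share 4.49% of their length with the antisense transcript *Irx3os*, which was read 13, 35, 0 and 1 times. The log2 ratio of *Irx3* to *Irx1* reads was 2.03 and 2.07 in Control and 0.75 and 0.96 in *Eya1*cKO, a difference of −1.20 in which the groups did not overlap (exact two-sided permutation p = 0.3333). *Irx3* thus gave more reads than *Irx1* in all 4 libraries, by a smaller margin in *Eya1*cKO.

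*Mecom* and *Tfap2b*, the distal factors, were not called. *Mecom* lies at chr3:29951296-30548008 on the minus strand and was read 4425, 5229, 1936 and 1974 times, or 126.7, 139.6, 85.7 and 112 CPM. Both *Eya1*cKO values were below both Control values, and 74.4% of the mean Control level was left (133 ± 9.14 against 99.1 ± 19.0 CPM). The log2 fold change of −0.44 ± 0.15 had an adjusted p of 0.11 and an unadjusted p of 0.02. It was −0.65 without *Eya1*cKO 2 and −0.26 without *Eya1*cKO 1, so the size of the change in *Mecom* depended on which library was left out. The antisense *Mecomos*, which shares 0.652% of the exonic length of *Mecom*, was read 7, 23, 1 and 0 times.

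*Tfap2b* lies at chr1:19208914-19238576 on the plus strand and was read 556, 661, 252 and 392 times, or 15.9, 17.7, 11.2 and 22.4 CPM. As for *Irx2*, *Eya1*cKO 1 was below and *Eya1*cKO 2 above both Control libraries, here 2.004-fold apart. The means, 16.8 ± 1.22 and 16.8 ± 7.92 CPM, were alike, and the log2 fold change of −0.06 ± 0.37 (adjusted p = 0.94) ran from −0.61 without *Eya1*cKO 2 to 0.40 without *Eya1*cKO 1. DESeq2 put it at 0.01. *Pou3f3*, *Irx2*, *Mecom* and *Tfap2b* were all higher in *Eya1*cKO 2 than in *Eya1*cKO 1, by 0.487, 2.53, 0.393 and 0.998 on the log2 scale, while *Irx1* and *Irx3* were lower there, by 0.570 and 0.362.

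None of the close relatives of the 9 genes passed the test. Of 12 paralogues, 6 had enough reads to be tested, with a median log2 fold change of −0.79. Those named here were chosen after their values were seen. *Irx5*, the neighbour of *Irx3*, was read 214, 196, 50 and 8 times (log2 fold change −1.97 ± 0.75, adjusted p = 0.14). The relative of *Mecom*, *Prdm16*, was read 1147, 1077, 481 and 95 times (−1.11 ± 0.43, adjusted p = 0.15). For both, *Eya1*cKO 2 was the lower of the *Eya1*cKO libraries, the reverse of the order seen for *Irx2*, *Mecom* and *Tfap2b*. *Tfap2c* was read 89, 94, 2 and 0 times (adjusted p = 0.083), that is at or under 3 counts in both *Eya1*cKO libraries, and *Pou3f1* 518, 588, 315 and 127 times (−0.48 ± 0.39, adjusted p = 0.46). With 1 *Eya1*cKO library left out *Irx5*, *Prdm16* and *Tfap2c* passed whichever it was, at an adjusted p from 4.4e-06 to 0.047, where 3271 to 4443 genes were called in each direction, and *Pou3f1* passed without *Eya1*cKO 1 (−1.09, adjusted p = 0.016) and not without *Eya1*cKO 2 (−0.15, adjusted p = 0.65). Without *Eya1*cKO 1 and without *Eya1*cKO 2 in turn, the log2 fold change was −3.63 and −1.37 for *Irx5* and −2.52 and −0.55 for *Prdm16*. For *Tfap2c* it was −9.25 and −4.79, values that depend on the prior count, the *Eya1*cKO libraries holding 2 and 0 reads. In DESeq2 *Tfap2c* passed with all 4 libraries (adjusted p = 0.014). *Lhx5* had 33 reads in *Eya1*cKO 1 and none elsewhere, and *Irx6* and *Pou3f2* had at most 2 reads in any library. Windows of 75 bases, the length of a read, were shared with the transcripts of another gene for none of the 9 segment factors but *Irx3* (2.32% of windows, with *Irx3os* and *Irx6*) and *Mecom* (0.0545%).

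**Figure D4:**
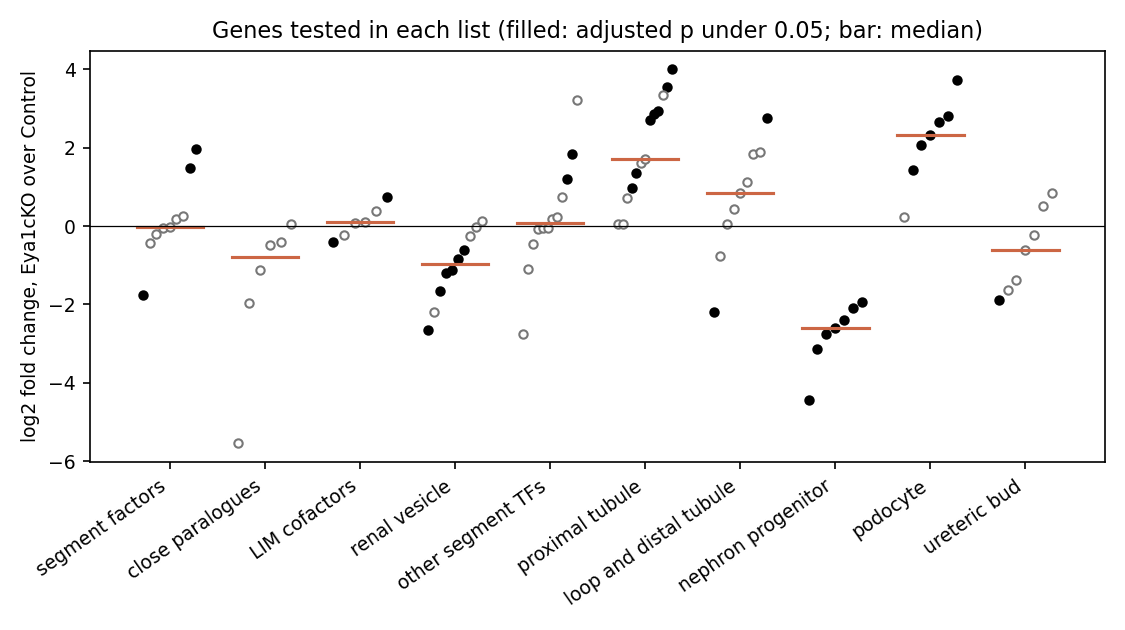
Log2 fold change of *Eya1*cKO over Control for every tested gene of each list, with filled points at an adjusted p under 0.05 and a bar at the list's median. Renal vesicle genes have a median of −0.98 and NPC genes one of −2.61, proximal tubule genes one of 1.72 and podocyte genes one of 2.31, and the segment factors lie around −0.03 with *Hnf4a* and *Lhx1* at the ends.

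Divided by exonic length, so that genes can be set side by side, the levels of the segment factors changed order. In Control the order was *Lhx1* (34.3 ± 0.450 CPM per kb of exon, SD, n = 2), *Irx3* (13.5 ± 1.17), *Mecom* (10.7 ± 0.736), *Pou3f3* (7.87 ± 0.857), *Hnf4a* (5.67 ± 0.441), *Irx1* (3.44 ± 0.226), *Tfap2b* (2.65), *Irx2* (1.99) and *Hnf4g* (0.101). Each of these stood apart from its neighbours in both Control libraries. In *Eya1*cKO *Hnf4a* came first, at 22.0 ± 0.930 CPM per kb, before *Irx3* (16.1 ± 2.84), *Lhx1* (10.2 ± 0.424), *Irx1* (9.49 ± 2.63), *Mecom* (7.98 ± 1.53), *Pou3f3* (7.85 ± 1.86), *Tfap2b* (2.64 ± 1.25), *Irx2* (1.88 ± 1.89) and *Hnf4g* (0.123). There the libraries overlapped between *Lhx1* and *Irx1*, between *Irx1* and *Mecom*, between *Mecom* and *Pou3f3* and between *Tfap2b* and *Irx2*, so those neighbours do not differ beyond their spread. *Hnf4a* moved from rank 5 to rank 1, *Lhx1* from rank 1 to rank 3 and *Irx1* from rank 6 to rank 4, and the bottom 3 kept their places.

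**Figure D5:**
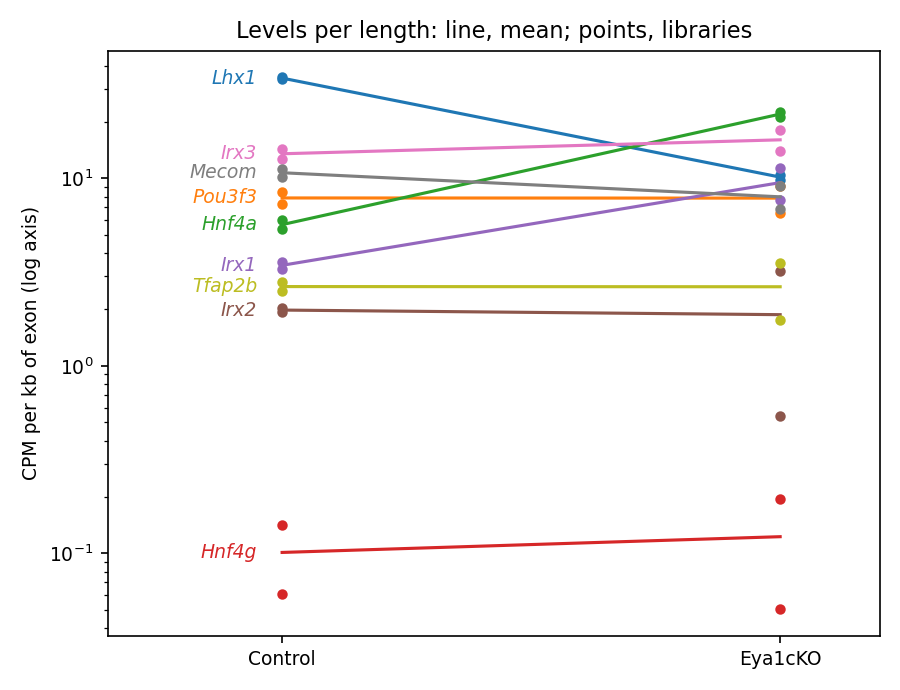
Level of each segment factor per kb of exon, in TMM-scaled CPM on a log axis, in Control and *Eya1*cKO. Points are the 2 libraries of a group and lines join the group means. The lines of *Hnf4a* and *Lhx1* cross, from 5.67 to 22.0 and from 34.3 to 10.2 CPM per kb.

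Among 12038 genes with a mean of at least 5 CPM, those whose centred log2 CPM lay nearest to each segment factor over the 4 libraries were looked up. For *Lhx1* they were *Car14* and *Dock5*, at a root mean square difference of 0.0882 and 0.0949, and 32 genes lay within 0.2. For *Hnf4a* they were *Cpq* (0.0528) and *Mapk8ip2* (0.0545), with 67 genes within 0.2, and for *Irx1* *Rhpn1* (0.0173) and *Lum* (0.0430), with 111. *Irx2* had 19 genes within 0.2, led by *Ccdc74a* (0.0705) and *Thumpd2* (0.0808), and *Hnf4g* had 9, led by *Rnf128* (0.111) and *Chsy3* (0.126). The flatter profiles were shared widely. There were 2295 genes within 0.2 of *Pou3f3* (nearest *Atg7* and *Litaf*), 2205 of *Irx3* (*B230219D22Rik* and *Gpcpd1*), 2045 of *Mecom* (*Tprkb* and *Ibtk*) and 680 of *Tfap2b* (*Zfp109* and *Usp31*). These measures rest on 4 libraries in 2 groups and are given as a description.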

How the data were processed

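RNA-seq was carried out on 2 Control and 2 *Eya1*cKO libraries of FACS-sorted tdTomato+ kidney cells. The deposited values are raw read counts per gene: the authors mapped single-end reads of 75 bases to mm10 with HISAT2, counted them on Ensembl release 90 with HTSeq-count and tested them with DESeq2. The strand setting is not given in the sources used here, so it is open to which gene reads went in the short stretches that *Irx3* and *Mecom* share with antisense transcripts, although the libraries were strand-specific. Reads on no gene were 12.9% to 22.7% of all reads recorded and unaligned ones 6.32% to 12.9%, higher in *Eya1*cKO, and these rows were left out. Symbols were matched for 52403 of 52636 identifiers.

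The main test was run with edgeR 4.0.16 in R 4.3.3 (filterByExpr with a minimum count of 10, TMM, glmQLFit with legacy = FALSE, glmQLFTest, genotype as the only term, Benjamini-Hochberg over 19041 genes, called under 0.05). The SE was taken from the F statistic, as the size of the log2 fold change divided by the root of F. With the same script, tested on simulated data first, 9 other settings and each left-out library were run, with DESeq2 1.42.0 among them. The floor of 3 counts covers counting error only and was 0.0801 to 0.171 CPM. Within-library log2 ratios used a pseudocount of 0.5 counts. Coordinates and lengths are those of GENCODE M21 (GRCm38), a later release than the one counted on, and promoters those of RefSeq (GRCm38.p6), which gave windows for 7 of the 9 genes. The sources differ on how many kidneys and litters were pooled.

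The 9 genes, the lists and the tests were chosen with earlier results of these data known, so they are no independent support. Named genes are the 9, *Eya1*, *Six2*, up to 2 called genes per list and direction with the smallest p, list genes at 3 counts or fewer throughout, overlapping genes and the 2 nearest in profile; others are said to be chosen after their values were seen. Some list genes that the rule would name are not reported here.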

Additional observations from a re-analysis of the deposited data

How the results depend on the processing

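*Lhx1* and *Hnf4a* kept their direction and their call under all 9 settings other than left-out libraries, and *Eya1* under all 13. *Irx1* kept its direction but had a log2 fold change of 1.48 with no filter on low counts (adjusted p = 0.073), 1.47 with the legacy quasi-likelihood method (0.068), 1.47 with the replicate block (0.11) and 1.45 with Control thinned to the *Eya1*cKO depth (0.073), so that the members called higher went from 2 to 1 in each. *Pou3f3* turned to 0.01 with library totals alone and in DESeq2, and *Tfap2b* to 0.01 in DESeq2. *Hnf4g* gave no adjusted p in DESeq2, with at least 10 counts in every library or with thinned Control. Over all genes, 981 higher calls became 548 with no filter, 1523 in DESeq2, 581 with the legacy method, 358 with the replicate block and 627 with thinned Control, and 839 lower calls became 507 with no filter, 515 with the legacy method and 263 with the block. The replicate numbers were not taken as pairing, since same-numbered libraries did not deviate together (r = 0.0062 over 19041 genes), and with the block 3 in place of 8 genes of the 6 related lists were called lower. Named genes that lost their call with the block were *Greb1* (adjusted p = 0.051), *Fgf8* (0.055), *Jag1* (0.063), *Ldb2* (0.07), *Hey1* (0.076), *Ptger3* (0.077) and *Ssbp3* (0.086). The level of *Lhx1* in Control was 33.8 in place of 34.3 CPM per kb with library totals alone. With 1 library left out, a lone library is assumed to vary like the other group. Higher calls over all genes then ran from 15 to 4443 and lower calls from 7 to 3482, members called higher from 0 to 2 and lower from 0 to 3, and related genes called higher from 0 to 19 and lower from 0 to 18. The log2 fold change ran from −1.81 to −1.72 for *Lhx1*, 1.86 to 2.03 for *Hnf4a*, −0.98 to 0.94 for *Hnf4g*, −0.29 to 0.21 for *Pou3f3*, 1.14 to 1.70 for *Irx1*, −1.89 to 0.68 for *Irx2*, −0.65 to −0.26 for *Mecom* and −0.61 to 0.40 for *Tfap2b*. It ran from −0.04 to 0.24 for *Ldb1*, −8.77 to 1.42 for *Esrrb*, −1.41 to 0.90 for *Slc12a1*, −4.81 to 0.36 for *Cldn19* and −7.43 to 3.05 for *Bsnd*, where fits against a library at 0 depend on the prior count. The cause was not tested. Among the named genes at or under the floor of 3 counts were *Hnf4g*, *Cldn19*, *Bsnd* and *Esrrb* in *Eya1*cKO 1, *Tfap2c* in both *Eya1*cKO libraries and *Gatm* in every library.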
